A study of Bos taurus with 17 samples.

Results

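The Hedgehog ligand IHH (Indian hedgehog) and the core of its pathway were followed in bovine cumulus cells, which surround the oocyte as part of the granulosa lineage, at 3 stages of the follicle. The 9 genes were the ligands IHH and DHH, the receptor PTCH1, the transducer SMO, the transcription factors GLI1, GLI2 and GLI3, and the inhibitors HHIP and SUFU. They were sought on the array by gene symbol, or by the gene named in the probe description where the array gave only a LOC number. No probe matched by symbol, and 10 were matched by LOC number and description. In all, 13 of the 21475 non-control probes read the 9 genes. GLI3 and SUFU were named by their description alone, since the array gave a sequence accession as their gene name. The set was chosen by the measured fall of the IHH log2 signal from C1 to C2, so the C1 and C2 values of IHH are a description and carry no test.

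NC1 complexes came from 6 calf samples, from animals of 3 to 6 months and follicles of 3 to 6 mm. C1 complexes came from 6 samples of adult cows of various ages. Both were aspirated after slaughter, without hormone treatment, and had a compact cumulus and an immature oocyte. C2 complexes came from 5 samples of non-lactating cycling Holstein cows aged 3 to 5 years, which had received progestagen ear implants, the FSH/LH preparation Stimufol and prostaglandin F2α. They were collected by ovum pick up 60 h after the prostaglandin, from follicles of more than 8 mm, with an expanded cumulus and a mature oocyte. Calf and adult thus cannot be told apart from NC1 and C1. Follicle size, hormones and the mode of collection likewise cannot be told apart from the step to C2.

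Hedgehog proteins are secreted, lipid-modified ligands. In their absence Patched keeps Smoothened inactive and the GLI factors are processed to repressors or held by SUFU. Ligand binding to Patched frees Smoothened, which acts in the primary cilium, and activated GLI factors then switch on targets that include GLI1, PTCH1 and HHIP, which bind the ligand or relay the signal. In the ovary, granulosa cells are known as the source of IHH and DHH, and theca cells as the main cells that respond.

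IHH, GLI1 and GLI3 carry most of what follows, and the 3′ ends of their 60-base probes are printed here, as deposited, so that the transcript end read by each probe can be seen. Capitals mark AATAAA, the polyadenylation signal, found on the printed strand. Together with its variant ATTAAA, it occurred in the last 30 bases of 15.5% of the 15256 probes with a deposited sequence.
IHH: ttggtcttttcttccttttgtAATAAAaat
GLI1: ttataatgacactgtttcctgatAATAAAg
GLI3: ttgaatcagtattgttacactcaaaacatc

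The signals are log2 values relative to the median of the array, so that 0 is the signal of the median probe. Levels of different probes are not comparable. A probe was tested with the main filter when 80% or more of a stage's arrays detected it, in all 3 stages, meaning that its spots were well above background and uniform. This held for 13865 probes, among them 1 probe each of IHH, DHH, PTCH1, SMO, GLI1, GLI3 and SUFU. The remaining probes of the 9 genes were fitted over all 21475 probes. The arrays detected from 66.0% to 82.7% of the probes, with a median of 71.3% at NC1, 79.3% at C1 and 74.0% at C2. The 17 arrays lay on 6 slides, each with 1 NC1 and 1 C1 array and 5 of them with a C2 array. They were scanned on 2 days, with C2 replicates 1, 2 and 5 on day 1 and C2 replicates 3 and 4 on day 2. The C2 arrays did not form 1 group. By the SD of the log2 difference between a pair of arrays over the valid probes, replicates 1 and 5 lay close (0.444), as did replicates 3 and 4 (0.512), while replicate 2 and these pairs lay 1.05 to 1.27 apart, against 0.431 to 0.756 between arrays of NC1 or of C1.

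IHH gave a strong signal in compact cumulus of both ages and a signal close to the array median in expanded cumulus. At NC1 its log2 signal was 9.30 at the lowest, 9.97 at the median and 10.18 at the highest. At C1 the corresponding values were 9.83, 10.06 and 10.47. At C2 the 5 arrays gave 1.28, -1.59, 1.14, -0.19 and 1.31, in the order of replicates 1 to 5. Every C2 array lay far below every NC1 and C1 array, while the NC1 and C1 arrays overlapped with each other. On the linear scale the mean was 970 ± 200 times the array median at NC1 (SD, n = 6), 1114 ± 216 times at C1 (SD, n = 6) and 1.66 ± 0.991 times at C2 (SD, n = 5).

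The mean log2 difference of IHH was -9.71 ± 0.40 (SE) from C1 to C2 and -9.50 ± 0.40 (SE) from NC1 to C2. Among the 13865 probes it was the fall of rank 1 in C2 against C1, just ahead of ACTA1 at -9.64, and of rank 2 in C2 against NC1. Since the set was chosen by the fall of IHH from C1 to C2, these ranks describe that choice and carry no test. All 5 C2 arrays detected the probe, and no spot was saturated, so the difference is a measured one at both ends. Within slides the difference of the C2 array from the C1 array of the same slide lay between -11.53 and -8.52. Within scan days the difference from C1 was -9.75 on day 1 and -9.64 on day 2. In contrast, the IHH signals of calves and adult cows overlapped, with a C1 minus NC1 of 0.21 ± 0.38 (SE). The C1 values also entered the choice of the set, so this difference carries no test. In samples of mixed cells such as these, fewer cells of a type and less RNA per cell cannot be told apart.

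**Figure D1:**
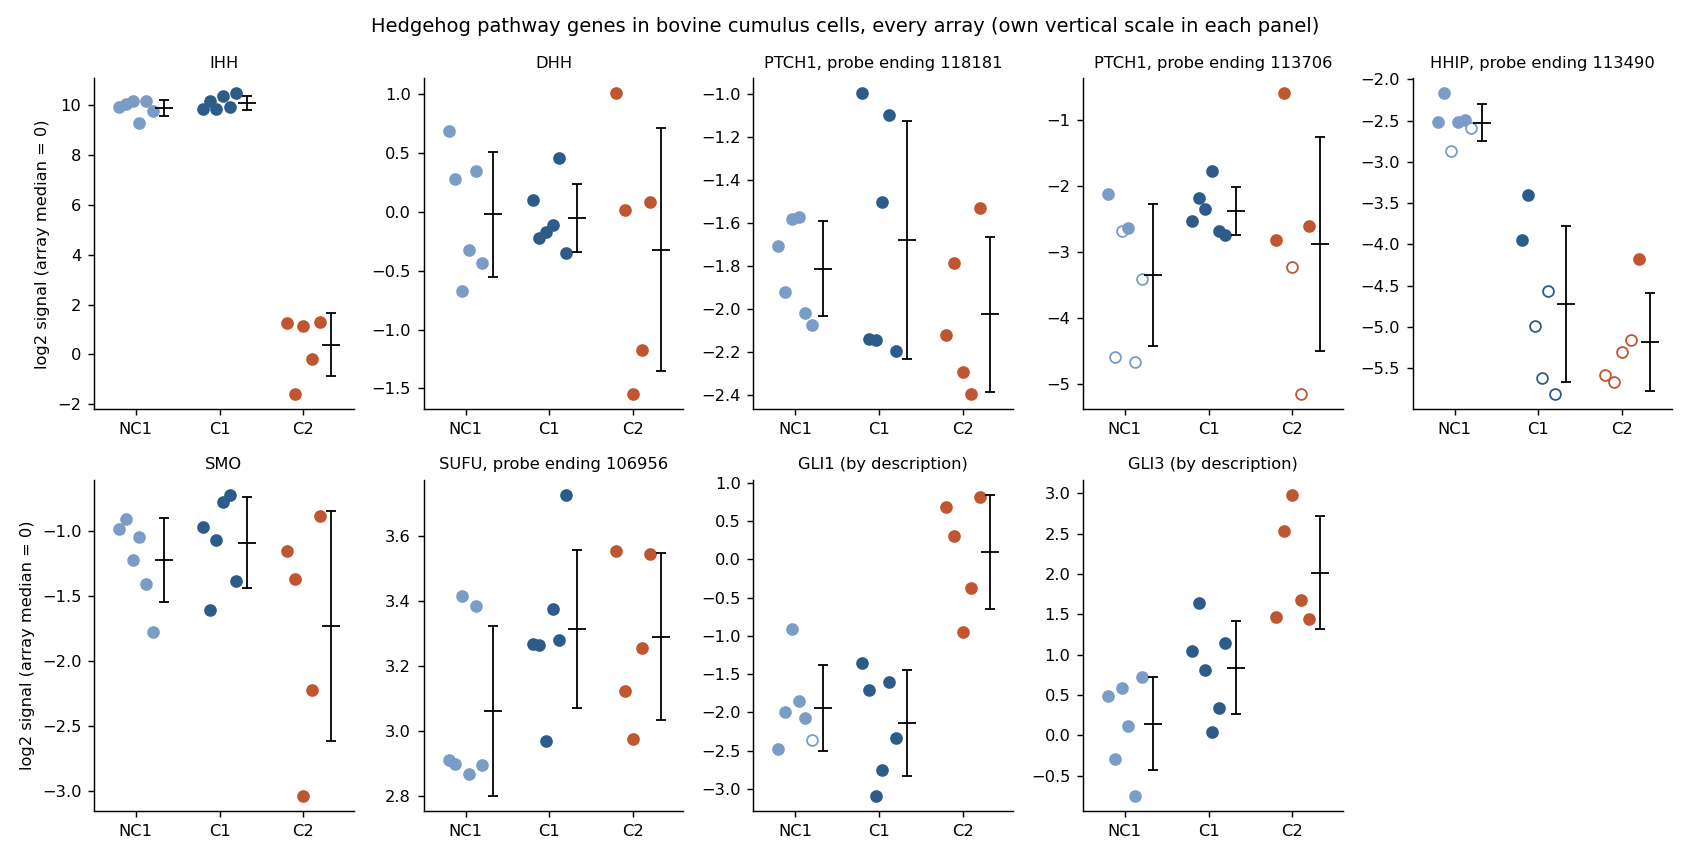
Log2 signal relative to the array median (vertical axis, own scale in each panel) of 9 probes of the Hedgehog pathway on every array of the NC1, C1 and C2 stages. Filled points are arrays that detected the probe, open points arrays that did not, and bars show mean ± SD; the 5 C2 arrays of IHH lie between -1.59 and 1.31, below all compact cumulus arrays, while GLI1 lies higher at C2 than at C1 on every array.

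DHH (Desert hedgehog), the other ligand made by granulosa cells, did not follow IHH. Its log2 signal ranged from -0.67 to 0.68 at NC1 and from -0.35 to 0.45 at C1. At C2 it was 1.00, 0.01, -1.55, -1.17 and 0.08 in the order of the replicates, so that the highest and the lowest arrays of the whole set were both C2 arrays. The difference did not pass the threshold against C1 (-0.27 ± 0.37 (SE), adjusted p = 0.581 by limma with Benjamini-Hochberg adjustment, 95% interval -1.05 to 0.50) or against NC1 (-0.30, adjusted p = 0.547). SHH (Sonic hedgehog), the remaining mammalian ligand, was well above background on no NC1 or C1 array and on 1 C2 array, replicate 3.

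Of the 8 genes other than IHH, 6 had a probe that passed the filter. In C2 against C1, 1 of these 6 passed the threshold, beside 28.1% of all valid probes, and it was higher at C2, as 15.3% of the valid probes were. In C2 against NC1, 2 of the 6 passed, beside 28.1% of all valid probes, both higher at C2, as 15.5% were. With 6 genes, counts of 1 and 2 are near that background. In C1 against NC1 none of the 6 passed, where 0.0577% of the valid probes did, and among the 3 stages 2 passed, beside 28.6%. The arrays of the compared stages did not overlap for 1 of the 6 genes in C2 against C1, 1 in C2 against NC1 and 0 in C1 against NC1, beside 21.6%, 20.9% and 2.1% of the valid probes.

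PTCH1, the receptor that restrains Smoothened and is itself a target, was read by 3 probes. The probe A_73_118181 was detected on all arrays and ranged from -2.07 to -1.57 at NC1, from -2.19 to -0.998 at C1 and from -2.40 to -1.53 at C2. The 3 stages overlapped, and C2 minus C1 was -0.35 ± 0.24 (SE, adjusted p = 0.276 by limma, 95% interval -0.86 to 0.17). Its LOC number has no RefSeq entry at present, so its identity rests on the description. The probe A_73_113706, whose LOC number is PTCH1 in RefSeq, was detected on 2 of 6 NC1, 6 of 6 C1 and 3 of 5 C2 arrays, and its C2 arrays ranged from -5.15 to -0.60. Fitted over all probes, it gave -0.50 ± 0.60 (SE) in C2 against C1 (adjusted p = 0.540 by limma). The third probe, A_73_106423, was well above background on no array.

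HHIP, the membrane protein that binds and sequesters Hedgehog ligands, lay near the background. For the probe A_73_113490, the LOC number has no RefSeq entry at present, so its identity rests on the description. The probe was detected on 4 of 6 NC1, 2 of 6 C1 and 1 of 5 C2 arrays. It ranged from -2.87 to -2.17 at NC1, from -5.82 to -3.39 at C1 and from -5.67 to -4.18 at C2, with no overlap between NC1 and either of the other stages. In the fit over all probes C2 minus NC1 was -2.65 ± 0.38 (SE) on the log2 scale (adjusted p = 2.82e-05 by limma), a fall that 9.79% of all probes shared. C1 minus NC1 was -2.20 ± 0.36 (SE, adjusted p = 0.00926 by limma), where 0.0931% of all probes fell. The arrays of all probes did not overlap for 16.7% of them in C2 against NC1 and 2.17% in C1 against NC1. The second call was lost without any single array other than C1 replicate 2 or C2 replicate 5, with adjusted p from 0.0104 to 0.0251. From C1 to C2 it did not pass (-0.46 ± 0.38 (SE), adjusted p = 0.361). The 2013 probes that no array detected also differed between these stages, with a median of -1.03 in C1 against NC1 and -0.46 in C2 against NC1, and with a normexp background correction, which compresses signals near the background, the HHIP differences were -0.62 (adjusted p = 0.117) and -0.53 (adjusted p = 0.0419). Oocyte transcripts were also higher at NC1, where the summed signal of 11 oocyte markers was 55.9 to 130 times the array median, against 5.72 to 50.3 at C1 and 3.61 to 8.04 at C2, and their part in the result was not tested. The other HHIP probe is A_73_106055, whose LOC number is HHIP in RefSeq. It was well above background on no NC1 or C1 array and on 3 of 5 C2 arrays. In the fit over all probes C2 minus C1 was 1.07 ± 0.52 (SE), without passing the threshold (adjusted p = 0.123 by limma). The 3 C2 arrays that detected the probe lay above all C1 arrays. C2 replicates 2 and 4, which did not detect it, read -5.68 and -5.57, below the C1 mean of -5.19. The probes that no array detected had a median of 0.56 in C2 against C1. The 2 probes thus gave no common course for HHIP.

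SMO, the transducer that Patched restrains, was detected on all arrays. It ranged from -1.78 to -0.91 at NC1 and from -1.61 to -0.72 at C1. At C2 the replicates gave -1.15, -1.37, -3.04, -2.23 and -0.88, with replicates 3 and 4 below all other arrays. The difference missed the threshold in C2 against C1 (-0.65 ± 0.32 (SE), adjusted p = 0.112 by limma, 95% interval -1.31 to 0.02) and in C2 against NC1 (-0.51, adjusted p = 0.213).

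SUFU, the cytoplasmic inhibitor that holds GLI factors, was the steadiest of the 9 genes in its probe A_73_106956. It ranged from 2.87 to 3.42 at NC1, from 2.97 to 3.73 at C1 and from 2.98 to 3.55 at C2. C2 minus C1 was -0.02 ± 0.18 (SE, adjusted p = 0.925 by limma), with a 95% interval from -0.40 to 0.35. The other SUFU probe was well above background on no NC1 array, 1 C1 array and 1 C2 array.

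Of the GLI factors, at the end of the pathway, GLI3 and a probe described as GLI1 were measurable and GLI2 was not. GLI1, an activator that is used as a readout of Hedgehog signalling, ranged from -2.48 to -0.91 at NC1 and from -3.09 to -1.36 at C1. At C2 it was 0.68, 0.30, -0.96, -0.38 and 0.81 in the order of the replicates. All 5 C2 arrays lay above all C1 arrays, and 4 of them above all NC1 arrays, with NC1 replicate 3 in the range of C2. The probe rose from C1 to C2 by 2.23 ± 0.37 (SE) on the log2 scale, or 4.70-fold (adjusted p = 0.000104 by limma, exact permutation p = 0.00433, the smallest that 5 against 6 arrays can give), and from NC1 to C2 by 2.04 ± 0.37 (SE, adjusted p = 0.000271). The rise from C1 was seen on all 5 slides and on both scan days, and that from NC1 on 4 of 5 slides, with a difference of 1.04 on day 2 that missed the threshold (adjusted p = 0.0815).

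The identity of this probe is uncertain. Its description names GLI1, but its LOC number belongs to ARHGAP9 in RefSeq, and the 2 genes are direct neighbours in the assembly ARS-UCD2.0. Another probe with the same accession, described as ARHGAP9, was detected on 0 of 6 NC1, 1 of 6 C1 and 1 of 5 C2 arrays, with signals from -6.42 to -3.68. The rise is therefore one of the probe, and whether GLI1 transcripts carried it was not tested.

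GLI3, mostly a repressor in the absence of ligand, was higher at C2 than at NC1. It ranged from -0.75 to 0.73 at NC1 and from 0.04 to 1.64 at C1, and was 1.46, 2.53, 2.98, 1.68 and 1.44 at C2. The C2 arrays lay above all NC1 arrays, while 2 of them were within the range of C1. GLI3 rose from NC1 to C2 by 1.87 ± 0.35 (SE) on the log2 scale (adjusted p = 0.000297 by limma, exact permutation p = 0.00433). In C2 against C1 the difference of 1.18 ± 0.35 (SE) just missed the threshold (adjusted p = 0.0107, 95% interval 0.45 to 1.91), although all 5 slides showed the higher value at C2. It passed without C1 replicate 2, C2 replicate 1, C2 replicate 5 or NC1 replicate 5, with differences from 1.18 to 1.34 and adjusted p from 0.00562 to 0.00802. Leaving out any other array did not bring it past the threshold. With the close C2 replicates averaged, so that C2 counted as 3 samples, C2 minus C1 was 2.27 for the GLI1 probe (adjusted p = 0.000447 by limma) and 1.27 for GLI3 (adjusted p = 0.0151). Without C2 replicate 2 the values were 2.18 (adjusted p = 0.000313) and 1.05 (adjusted p = 0.0269), and GLI3 passed against NC1 in both settings. GLI2, the main activator in many tissues, was well above background on no array, so no change of it was measurable at this signal.

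**Figure D2:**
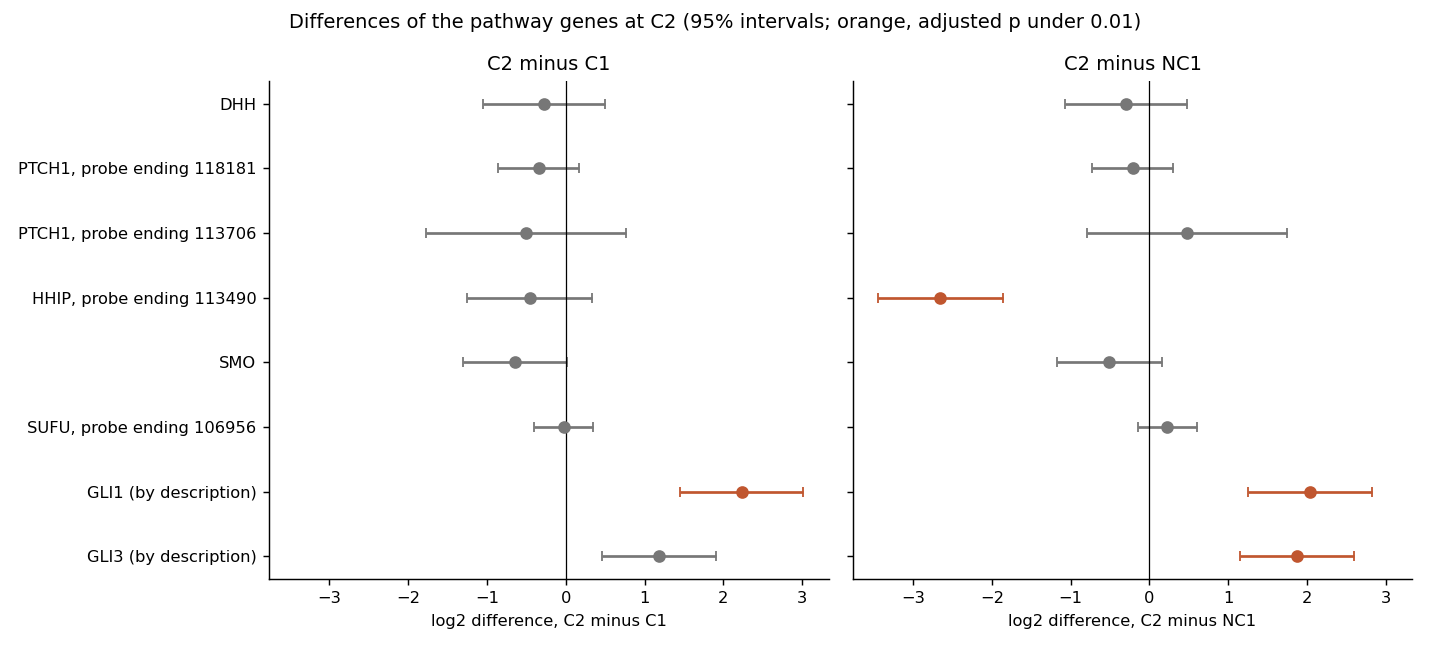
Log2 differences of C2 from C1 (left) and from NC1 (right) with 95% intervals, for 8 probes of Hedgehog pathway genes; orange marks an adjusted p under 0.01. The GLI1 probe lies above 0 in both panels, and DHH, PTCH1, SMO and SUFU span 0.

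Markers of other cell types also changed at C2. Of 11 theca and stroma markers that passed the filter, LUM and COL1A1 rose and MYH11 and TCF21 fell from C1 to C2, while CYP17A1 and INSL3, which mark the steroid-producing theca, did not pass. The 4 of 11 are 36.4%, beside 28.1% of all valid probes. The summed signal of all 13 theca and stroma markers ranged from 242 to 441 times the array median at NC1, from 245 to 385 at C1 and from 336 to 609 at C2. This sum follows the probes with the strongest signal. LUM had a mean log2 signal of 3.73 at C1 and 7.52 at C2. INSL3 went from 7.52 to 6.75 and MYH11 from 5.59 to 2.48. The median difference of the 11 measured markers from C1 to C2 was -0.30, so the sum does not show a common rise. LHCGR was detected on 0 of 6 NC1, 1 of 6 C1 and 2 of 5 C2 arrays. Of 7 leukocyte markers, 3 rose from C1 to C2, or 42.9%, and none fell, where 15.3% of all valid probes rose. Of 5 endothelial markers, 1 rose, or 20%, near those 15.3%, and CDH5 and EMCN were well above background on no array. The summed signal of the 8 endothelial markers was 1.35 to 2.92 times the array median at NC1 and 1.27 to 1.68 at C1. At C2 it was 3.04 to 11.5, above all arrays of the other stages. That of 8 leukocyte markers was 6.80 to 14.1 at NC1, 5.35 to 8.00 at C1 and 6.76 to 31.2 at C2. The part of these cells in the GLI values was not tested.

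Markers of granulosa cells, the known source of IHH, were also lower at C2. Of 8 granulosa and compact cumulus markers that passed the filter, 7 fell from C1 to C2, or 87.5%, and none rose. Of the 13865 valid probes, 28.1% passed in either direction and 1775 fell. The 7 differences ran from -6.46 for HSD17B1 to -1.49 for FST. FSHR, the FSH receptor, fell by 3.55 on the log2 scale and AMH fell by 2.14, while INHA was at -0.29 and did not pass. Of 5 markers of expansion, 4 rose from C1 to C2, or 80%, where 15.3% of all valid probes rose. TNFAIP6 had the largest difference, at 6.63, while VCAN was at -0.54 and did not pass. All 9 markers of the granulosa list were detected on at least 1 array.

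**Figure D3:**
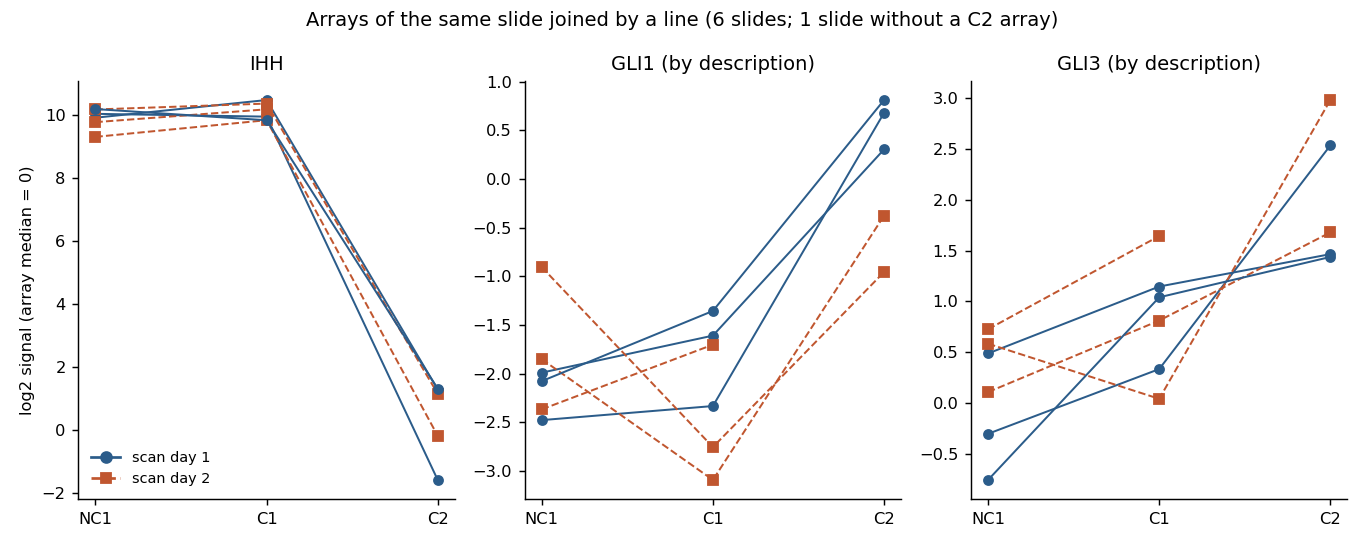
Log2 signal relative to the array median (vertical axis) of IHH and the GLI1 and GLI3 probes at the 3 stages, with arrays of the same slide joined by a line; solid blue lines are slides scanned on day 1 and dashed orange lines slides scanned on day 2. From C1 to C2 all 5 slides go down for IHH and up for the GLI1 and GLI3 probes.

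Values also differed between the C2 arrays of the 2 scan days. The lowest 2 of the 5 C2 values were those of replicates 3 and 4, the C2 arrays of day 2, for DHH, for SMO, for the GLI1 probe and for the PTCH1 probes A_73_118181 and A_73_113706. Within day 2, with 2 C2 and 3 C1 arrays, DHH was lower at C2 by a difference of -1.19 ± 0.28 (SE, adjusted p = 0.00327 by limma), SMO by -1.48 ± 0.36 (adjusted p = 0.00380) and the PTCH1 probe A_73_113706 by -2.08 ± 0.50 (adjusted p = 0.00746, fitted over all probes). Within day 1, with 3 arrays of each stage, the same probes gave 0.30 ± 0.33 (adjusted p = 0.591), -0.11 ± 0.28 (adjusted p = 0.820) and 0.64 ± 0.73 (adjusted p = 0.648). Neither C2 array of day 2 detected the PTCH1 probe A_73_113706, so its day 2 difference rests on C2 readings at the background. Replicates 3 and 4 were also a close pair (0.512), which another setting averaged with each other. The day 2 standard errors and adjusted p therefore say little about the spread between C2 samples. The difference between the days was not tested, and the day cannot be told apart from the animals scanned on it. The GLI1 probe passed the threshold in C2 against C1 on both days, at 2.36 and 1.85.

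**Figure D4:**
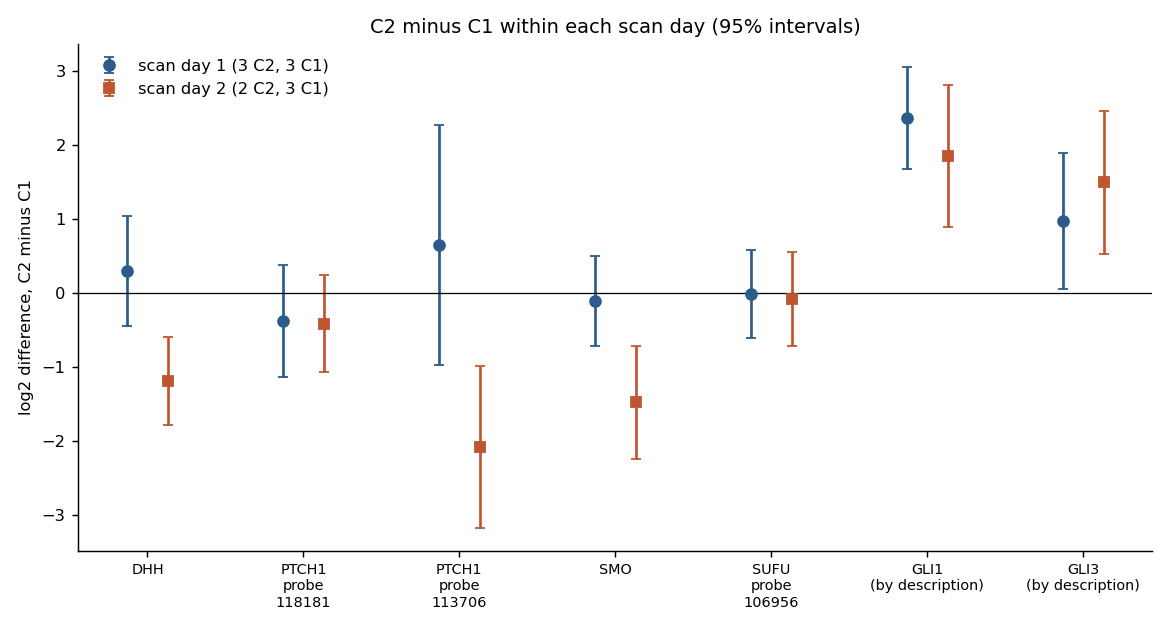
Log2 difference of C2 from C1 (vertical axis) within each scan day, with 95% intervals, for 7 probes of Hedgehog pathway genes; blue circles are day 1 (3 C2 and 3 C1 arrays), orange squares day 2 (2 C2 and 3 C1 arrays). DHH, SMO and the PTCH1 probe A_73_113706 lie below 0 on day 2 and span 0 on day 1, and the GLI1 probe lies above 0 on both days. Neither C2 array of day 2 detected the PTCH1 probe A_73_113706. The C2 arrays of day 2 are the close pair of replicates 3 and 4.

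A list of 65 further genes of the pathway was counted in the same fit, with 51 of them measured by a probe that passed the filter. From C1 to C2, 8 rose and 10 fell, or 35.3% of the 51, beside 28.1% of all valid probes, and the median difference was -0.31 beside 0.02 for all valid probes. From NC1 to C2, 5 rose and 10 fell, or 29.4%, beside 28.1% of all valid probes. In C1 against NC1 none of the 51 passed, where 0.0577% of all valid probes did.

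Of 7 genes that prepare and release the ligand, 3 were measured and 2 of these fell from C1 to C2. Of the 13865 valid probes, 28.1% passed in either direction and 1775 fell. SCUBE3, of a family of secreted proteins known to carry lipid-modified Hedgehog away from the cell, ranged from 2.06 to 2.74 at NC1, from 2.01 to 2.32 at C1 and from -1.98 to -1.29 at C2. From C1 to C2 it fell by 3.83 ± 0.17 (SE) on the log2 scale (adjusted p = 2.14e-11 by limma), and from NC1 to C2 it fell by 4.04 ± 0.17 (SE). DISP1 (Dispatched), which exports the ligand from the producing cell, fell by 1.00 ± 0.17 (SE, adjusted p = 0.000168), again with no overlap between C1 and C2. HHAT, the enzyme that attaches palmitate to the ligand, was at -1.10 and missed the threshold (adjusted p = 0.0144). DISP2, SCUBE1, SCUBE2 and SHH did not pass the filter.

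Of 6 measured co-receptors and surface proteins, GAS1, a co-receptor, rose (2.33 ± 0.52 (SE), adjusted p = 0.00165), with arrays that overlapped. This is 16.7% of the group, near the 15.3% of all valid probes that rose. CDON, GPC4, GPC6, GPR161 and GPC3 did not pass in C2 against C1.

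Of 18 genes of transduction and GLI processing, 3 rose and 3 fell from C1 to C2, or 33.3%, beside 28.1% of all valid probes. STK36, the mammalian homologue of Fused, fell by 1.26 ± 0.21 (SE) on the log2 scale (adjusted p = 0.000116 by limma), and GRK2, a kinase of SMO, fell by 0.69 ± 0.19 (SE, adjusted p = 0.00702). PRKACB, a catalytic subunit of protein kinase A, which phosphorylates GLI factors for processing, rose by 1.20 ± 0.21 (SE, adjusted p = 0.000142), and CSNK1D, a casein kinase, by 0.83 ± 0.21 (SE, adjusted p = 0.00393). These 4 genes had no overlap between the C1 and C2 arrays. The GRK2 call was lost without any of C1 replicates 3, 4 and 6 or C2 replicates 2, 3, 4 and 5, and the CSNK1D call without C1 replicate 2 or C2 replicates 3 or 4. The GRK2 call was also lost with the replicate block (adjusted p = 0.0306 by limma), no filter (0.0121), array weights (0.0763) and the close C2 replicates averaged (0.0236). The CSNK1D call was also lost with normexp (adjusted p = 0.0186 by limma), array weights (0.0127) and the close C2 replicates averaged (0.0153). A second CSNK1D probe did not pass, at 0.41 (adjusted p = 0.220). For the probe that passed, the symbol read from its description differed from CSNK1D, its RefSeq symbol, so its identity is uncertain. EVC2 fell and PRKACA rose with overlapping arrays.

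Of 11 genes of transport in the primary cilium, 2 rose and 3 fell, or 45.5%, beside the same 28.1%. The fallen genes were carriers of the intraflagellar transport machinery, IFT122 (-1.73 ± 0.22 (SE), adjusted p = 5.79e-06), IFT172 (-1.12 ± 0.23 (SE), adjusted p = 0.000894) and IFT88 (-0.99 ± 0.19 (SE), adjusted p = 0.000349). The kinesin motor subunits KIF3B (0.91 ± 0.19 (SE), adjusted p = 0.000735) and KIF3A rose. A second probe of IFT122 (-1.10, adjusted p = 0.0344) and one of KIF3A (0.45, adjusted p = 0.0385) had the same sign without passing. The KIF3B, IFT172 and IFT88 calls were lost within either scan day, which holds fewer arrays, with adjusted p from 0.0203 to 0.0346 by limma.

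Of 13 measured genes known as Hedgehog targets in other tissues, 2 rose and 2 fell from C1 to C2. These 4 are 30.8% of the group, near the 28.1% of all valid probes. FOXM1, a regulator of cell division, fell by 2.42 ± 0.48 (SE) on the log2 scale (adjusted p = 0.000559 by limma), with C2 arrays from -1.61 to 2.11 below C1 arrays from 2.64 to 3.24. IGFBP6, a binding protein of insulin-like growth factors, rose by 1.77 ± 0.29 (SE, adjusted p = 0.000100), with C2 arrays from 3.51 to 5.42 above C1 arrays from 2.41 to 3.49. SFRP1 fell and CCND1 rose, each with arrays that overlapped. None of the 13 passed in C1 against NC1.

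**Figure D5:**
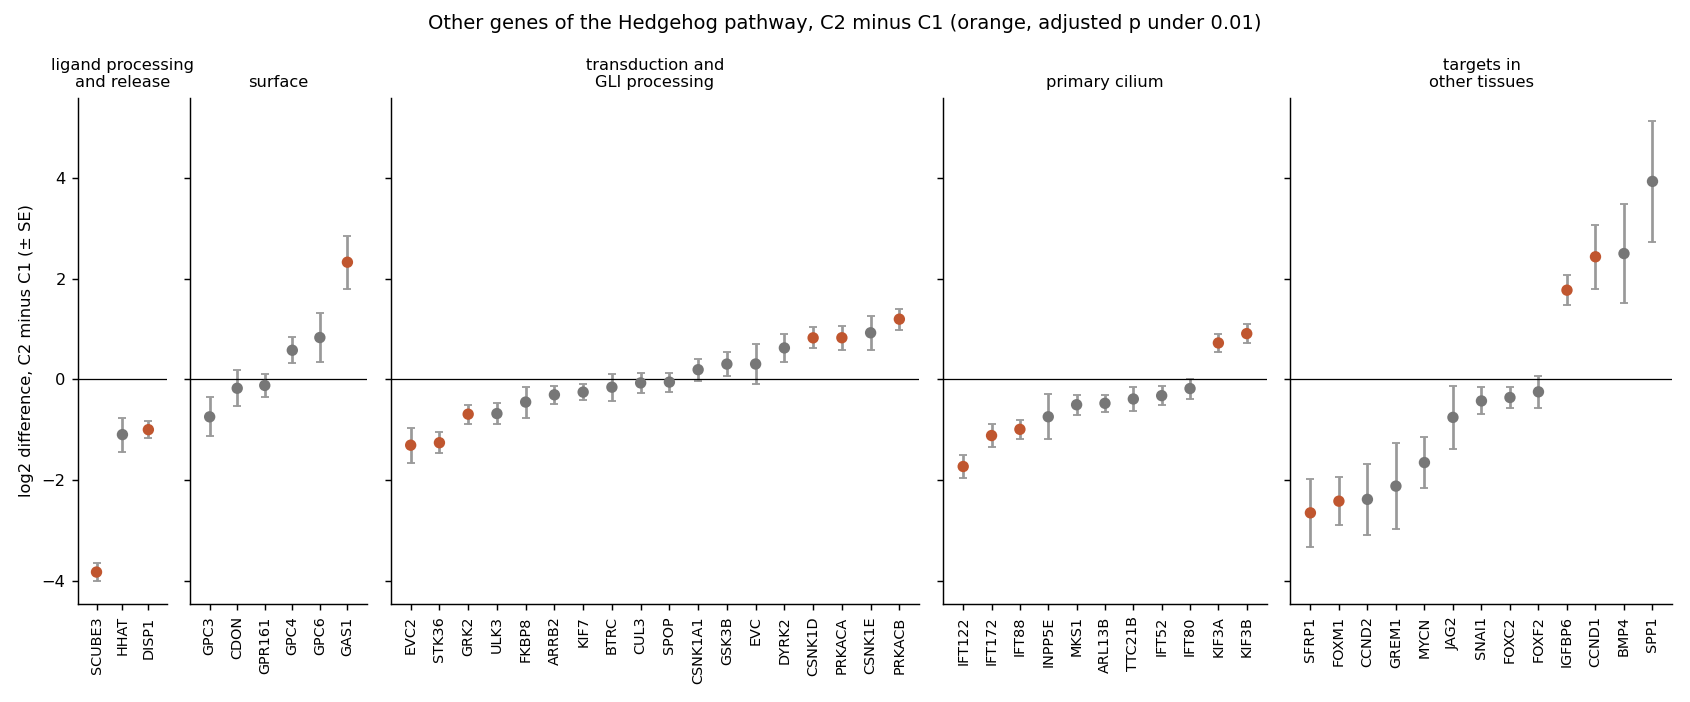
Log2 difference of C2 from C1 (vertical axis, ± SE) of further Hedgehog pathway genes that passed the filter, in 5 groups by role; orange marks an adjusted p under 0.01. SCUBE3 has the lowest value at -3.83, and the group of targets holds called genes on both sides of 0.

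The 5 named genes closest to IHH over the 17 arrays, by the SD of their log2 difference from it among 11161 genes detected in compact cumulus, were ACTA1 (0.66), KRT73 (1.27), DPP6 (1.44), ALOX15 (1.58) and PPYR1 (1.67). ACTA1, skeletal muscle α-actin, had a mean of 9.03 at NC1, 8.93 at C1 and -0.71 at C2. ALOX15, a lipoxygenase, was detected on no C2 array, so C1 was at least 85.6-fold higher. KRT73 and PPYR1 were each detected on 1 of 5 C2 arrays. Ranked by Pearson's correlation instead, ACTA1 was again at rank 1, and the other 4 lay at ranks 35 to 137. On the 12 compact cumulus arrays alone ACTA1 ranked 6775, so the likeness lay in the step to C2.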

How the data were processed

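For each of 17 cow cumulus samples, total RNA was amplified to Cy3-labelled cRNA, which was read on 1 Agilent bovine array of 1 colour. The labels give ovarian follicles as tissue, and the protocols describe cumulus cells separated from the oocyte. The authors deposited the spot intensity of each array from Agilent Feature Extraction 10.5.1.1, corrected for background and not scaled between arrays, and a table of log2 values scaled by the array median. On every array, 99% of its values lay within 2.03e-06 of those computed here after a constant offset was removed, whose origin was not given in the sources used here. No coordinates are printed, because the sources used here give no build.

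Log2 of the processed signal was averaged over the usual 2 spots of a probe, without spots flagged as non-uniform or outlying, and the array median was subtracted. A probe was valid when 80% or more of a stage's arrays detected it, in all 3 stages. The 3 stages were fitted together in limma 3.58.1 (R 4.3.3), with Benjamini-Hochberg adjustment over all 13865 valid probes, or over all 21475 probes where a probe was not valid, and a threshold of 0.01. Single differences were also compared by 2-sided exact permutation tests of the group means. Symbols came from RefSeq through accession or LOC number, otherwise from the file. Lower bounds set undetected arrays at the lowest detected signal of the array, or at their own signal where higher. The study's methods give as many animals per stage as there are arrays, while the labels tie no array to an animal, so the p-values measure the spread between these samples. Arrays carry no read depth, and their number limits the precision.

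The genes, the pathway list and the marker lists were chosen with earlier results of these data known. The named genes were the 9 members, the list genes that passed in C2 against C1 without overlapping arrays (at most 4 per group), SHH, the markers, and the 5 genes most like IHH. A gene of the pathway list is not reported here and was left out of its counts. GAS1, EVC2, PRKACA, KIF3A, SFRP1, CCND1 and HHAT were named after their values were seen. A gene with more than 1 valid probe was read by its brightest on average; of the 6 other valid probes in the pathway list, 0 differed in direction and 3 in call. The fit was tested on simulated data. Alternatives were the filter, the scaling (75th percentile, quantile), normexp background correction with an offset of 50, the deposited table, all spots, replicate, slide or scan day as a block, fits within each day, array weights, the close C2 replicates 1 and 5, and 3 and 4, averaged, no moderation, and each array left out in turn. The remaining steps used Python 3.11.15.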

Additional observations from a re-analysis of the deposited data

Results flagged for a closer look

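Within each stage, the array lying farthest out was compared with the spread of the others for every measured probe described here, over 69 groups of 5 or 6 arrays. In 3 of them the gap was above the 95% limit of Dixon's test, where chance gives about 1 in 20. None of the 3 concerned one of the 9 core genes. NC1 replicate 5 had a FOXM1 log2 signal of 3.26, above the other NC1 arrays. C2 replicate 2 had an IFT172 signal of 3.22, below the other C2 arrays. NC1 replicate 3 had an IFT88 signal of 4.38, above the other NC1 arrays.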

How the results depend on the processing

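In the 15 other settings than leaving out arrays, the IHH difference of C2 from either stage of compact cumulus stayed between -10.04 and -8.70, and the GLI1 and GLI3 probes stayed higher at C2. The count of 1 core gene other than IHH called in C2 against C1 became 2 with normexp background correction, with the replicate block, with slide as a block and with scan day as a block, in each case by adding GLI3, and 3 within scan day 2. In C2 against NC1 the count of 2 became 1 within scan day 2 and 3 with no filter, in C1 against NC1 the count of 0 became 1 with no filter (HHIP), and among the 3 stages the count of 2 became 1 within scan day 1 and 3 with no filter. The pathway list counts of 18 and 15 became 7 and 9 within scan day 1, which holds fewer arrays. In C2 against C1, GRK2 lost its call within both days (adjusted p = 0.204 and 0.0251 by limma). CSNK1D (0.121), IGFBP6 (0.0791), DISP1 (0.0268) and STK36 (0.0126) lost it within day 1, and PRKACB (0.0421) within day 2. With arrays left out, the core gene counts lay between 1 and 2 in C2 against C1 and were 2 in C2 against NC1, 0 in C1 against NC1 and 2 among the stages, and the pathway list counts lay between 13 and 20 and between 11 and 18. The numbers of the labels did not pair the samples, with correlations between same-numbered arrays from -0.32 to 0.25, and with the replicate block the pathway list counts were 13 and 10.

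Several differences that had not passed the threshold changed sign without passing it, and the cause was not tested. Those of the PTCH1 probe A_73_113706 were not all near 0. Within scan day 1, DHH was at 0.30 and the PTCH1 probe A_73_113706 at 0.64 in C2 against C1, the PTCH1 probe A_73_118181 at 0.0697 in C2 against NC1, and the GLI1 probe at 0.42 in C1 against NC1. Within scan day 2, DHH was at 0.31 and the PTCH1 probe A_73_118181 at -0.19 in C1 against NC1, and the PTCH1 probe A_73_113706 at -1.28 in C2 against NC1. With normexp, the PTCH1 probe A_73_113706 was at 0.0621 in C2 against C1 and -0.0584 in C1 against NC1, the other PTCH1 probe at -0.11 and SMO at -0.0677 in C1 against NC1, and HHIP at 0.10 in C2 against C1. In C2 against C1, array weights gave 0.0045 for DHH and 0.16 for SUFU, and the replicate block 0.000529 for SUFU. With arrays left out, the ranges that crossed 0 were -0.61 to 0.0313 in C2 against C1, -0.63 to 0.0031 in C2 against NC1 and -0.16 to 0.11 in C1 against NC1 for DHH. They were -1.07 to 0.0654 and -0.10 to 1.04 for the PTCH1 probe A_73_113706 in the 2 C2 comparisons, -0.0036 to 0.24 for the other PTCH1 probe and -0.35 to 0.0115 for GLI1 in C1 against NC1, and -0.0929 to 0.0583 for SUFU in C2 against C1.

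Signals near the background limit HHIP, GLI2, SHH and the weaker PTCH1 and SUFU probes, whose differences are not firm. Normexp correction narrowed the GLI1 difference from C1 to 1.19, which still passed. The HHIP call in C1 against NC1 was also lost with scaling by the 75th percentile, with each block, within either scan day and without moderation, with adjusted p from 0.0108 to 0.202 by limma. The median of all valid probes in C2 against C1 and C2 against NC1 was 0.02 and 0.11, and -0.11 and -0.04 with scaling by the 75th percentile.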
